A study of Homo sapiens with 16 samples.

Results

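The 47 genes described here encode the proteins that license DNA replication and work at the replication fork, and they were measured by RNA sequencing in MDA-MB-231, an established human line of triple-negative breast cancer. The genes were chosen by name, from the origin recognition complex to the factors that protect the fork. Each of the 47 symbols matched 1 gene identifier among the 60620 identifiers that all count tables shared. Their products act in a fixed order at each origin.

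Before S phase, the origin recognition complex (ORC1 to ORC6), CDC6 and CDT1 load the ring-shaped MCM2-7 helicase onto origin DNA, and geminin, encoded by GMNN, blocks CDT1 so that no origin is loaded again. The CDC7 kinase with its activator DBF4, TICRR, CDC45, the GINS complex and MCM10 then turn the loaded ring into an active helicase. DNA polymerase alpha and primase start the new strands, the polymerases delta and epsilon extend them, PCNA holds the polymerases on DNA after its loading by the RFC complex, and FEN1 and LIG1 join the Okazaki fragments. CLSPN, TIMELESS and TIPIN keep the moving fork intact. Transcription of many of these genes rises at the entry into S phase through E2F factors. MYC is a transcription factor that binds E-box sequences together with MAX and is known to promote entry into the cell cycle.

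The 16 libraries fell into 6 groups. Untreated cells were either unedited (parental 231) or carried a CRISPR/Cas9 knockout of TXNIP, an arrestin-family protein that restrains glucose uptake (231:TKO), with 2 libraries each. Cells of both kinds were also given a non-targeting siRNA (siNT) or an siRNA against MYC (siMyc) for 48 hours, which gave 231:TKO+siNT and 231:TKO+siMyc on the knockout side and parental 231+siNT and parental 231+siMyc on the other, each with 3 libraries. By the methods, knockout cells were cloned from isolated single cells, without a statement of how many clones were sequenced, so what marks a clone and what follows from the knockout cannot be told apart. The labels name replicates without saying whether they came from separate cultures, and p-values measure the spread between these libraries.

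Total counts ranged from 18953668 to 59799444 per library. The markers set for the cell line were as its type implies for VIM, from 1846 to 3105 CPM (gene counts scaled by library size and TMM factor), and CD44, and for ESR1 and PGR, which stayed at or below 0.298 CPM, while ERBB2 reached 107, EPCAM 32.0 and CDH1 9.40 CPM. Of the markers of other cell types, CD3E and ALB stayed at or below 0.0627 CPM, PTPRC reached 1.44 and COL1A1 20.3 CPM. PECAM1, also set as such a marker, matched no gene identifier by its symbol and was not read. TXNIP was at 276 and 277 CPM in parental 231, at 12.7 and 46.5 in 231:TKO, between 6.70 and 10.1 in the siRNA-treated 231:TKO libraries, between 296 and 315 in parental 231+siNT and between 434 and 470 in parental 231+siMyc. MYC was at 124, 147 and 134 CPM in 231:TKO+siNT and at 58.8, 58.5 and 57.9 in 231:TKO+siMyc. In parental cells it was at 123, 125 and 129 CPM with siNT and at 64.8, 64.9 and 67.3 with siMyc. The siRNA against MYC therefore lowered MYC mRNA in both populations, with a log2 fold change of -1.21 in 231:TKO (edgeR adjusted p = 1.80e-11) and -0.96 in parental cells (edgeR adjusted p = 0.0296).

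Some libraries stood apart within their groups. Replicate 1 of parental 231+siNT and replicate 3 of parental 231+siMyc deviated together from their group means. The mean log2 deviation of the pair was below 0 in 12 of the 16 longest members, down to -0.53 for TICRR and -0.47 for POLE, and above 0 in 13 of the 16 shortest, with 0.23 for PCNA and for GMNN. POLA2, among the longest, had 0.28 and ORC1, among the shortest, -0.25. The 231:TKO replicates also differed from each other well beyond counting error, with a chi-square of 43.6 per degree of freedom against 2.14 for the parental 231 replicates. Counting was by single read without siRNA and by read pair with it, and the siRNA-treated parental libraries were counted with a later annotation release.

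The promoters of the members were read first, because the comparisons concern a factor that binds E-boxes and genes known as E2F targets. RefSeq promoter windows of GRCh38.p14, from 250 bases before to 50 bases after a start site, were matched to 43 of the 47 members, with 57 windows in all, and MCM4, MCM5, GINS4 and POLD3 were not matched. An E2F motif, taken as TTTCCCGC, TTTCGCGC, TTTGCCGC or TTTGGCGC on either strand, was present in a window of 23 of the 43 members (53.5%) and in 3.99% of all 27305 genes with a window. The E-box CACGTG, which reads the same on both strands, was present for 7 members (16.3%) and for 8.77% of all genes. The CCAAT box, searched as CCAAT on either strand, was present for 26 members (60.5%) and for 39.7% of all genes. MCM2, MCM7 and MCM8 had an E-box and an E2F motif in the same window, which 0.377% of all genes had.

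Stretches before the start sites of 8 members are shown, the last base before the start being position -1. Capitals mark the E-box, E2F and CCAAT letters of matches that end before the start. Matches across or after the start are not marked, such as the CCAAT box of MCM7 from position -2 and the E2F motifs of MCM2 from positions 3 and 7. MCM2 (chr3:127598385-127598410, plus strand) and MCM7 (chr7:100101398-100101599, minus strand) are shown for their E-box near the start, and MCM6 (chr2:135876482-135876610, minus strand) and PCNA (chr20:5126628-5126789, minus strand) for their combined E2F and CCAAT letters. FEN1 (chr11:61792866-61792901, plus strand) and TIMELESS (chr12:56449431-56449494, minus strand) are shown as members with an E-box and no E2F motif. POLA2 (chr11:65261894-65261931, plus strand), which had an E2F motif, is shown as a member that did not pass the test after siMyc in 231:TKO, and POLD2 (chr7:44123597-44123631, minus strand), which had only a CCAAT box, as the member with the largest fall there. In MCM6, the 12 capitals that begin with TTTGGCGC hold 2 E2F matches that overlap, and they occur in both of its E2F sites.
MCM2: cgggctttggtgggtCACGTGaacca
MCM7: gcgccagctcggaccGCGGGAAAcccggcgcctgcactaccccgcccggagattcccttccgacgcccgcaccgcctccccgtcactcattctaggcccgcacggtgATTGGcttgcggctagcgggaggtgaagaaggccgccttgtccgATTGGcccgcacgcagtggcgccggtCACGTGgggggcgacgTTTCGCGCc
MCM6: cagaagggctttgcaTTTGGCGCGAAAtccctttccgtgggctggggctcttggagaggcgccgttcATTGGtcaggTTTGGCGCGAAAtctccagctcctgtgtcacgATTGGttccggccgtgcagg
PCNA: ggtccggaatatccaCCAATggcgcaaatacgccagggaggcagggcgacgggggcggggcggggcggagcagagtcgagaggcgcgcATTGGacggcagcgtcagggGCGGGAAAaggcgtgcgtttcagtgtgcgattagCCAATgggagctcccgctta
FEN1: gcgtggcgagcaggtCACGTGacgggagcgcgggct
TIMELESS: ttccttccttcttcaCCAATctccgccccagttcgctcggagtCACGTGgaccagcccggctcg
POLA2: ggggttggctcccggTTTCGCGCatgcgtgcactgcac
POLD2: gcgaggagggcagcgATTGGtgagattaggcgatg

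After MYC knockdown in 231:TKO cells, the replication genes fell nearly as a body. By edgeR's quasi-likelihood test at a Benjamini-Hochberg adjusted p of at most 0.05, 41 of the 47 members were lower and 0 were higher, while 13.9% of the 22427 genes tested were lower and 13.3% higher. DESeq2 also called 41 members lower, and 19.1% of the genes it tested. All 47 log2 fold changes were below 0, from -0.77 for POLD2 to -0.02 for ORC3, with a median of -0.40 against 0.01 over all genes tested. In 43 members every siMyc library was below every siNT library, which held for 19.8% of all genes. The members that did not pass were ORC3, TIMELESS, GINS4, RFC1, MCM5 and POLA2. In bulk RNA, a lower level in every cell and fewer cells with a high level cannot be told apart.

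**Figure D1:**
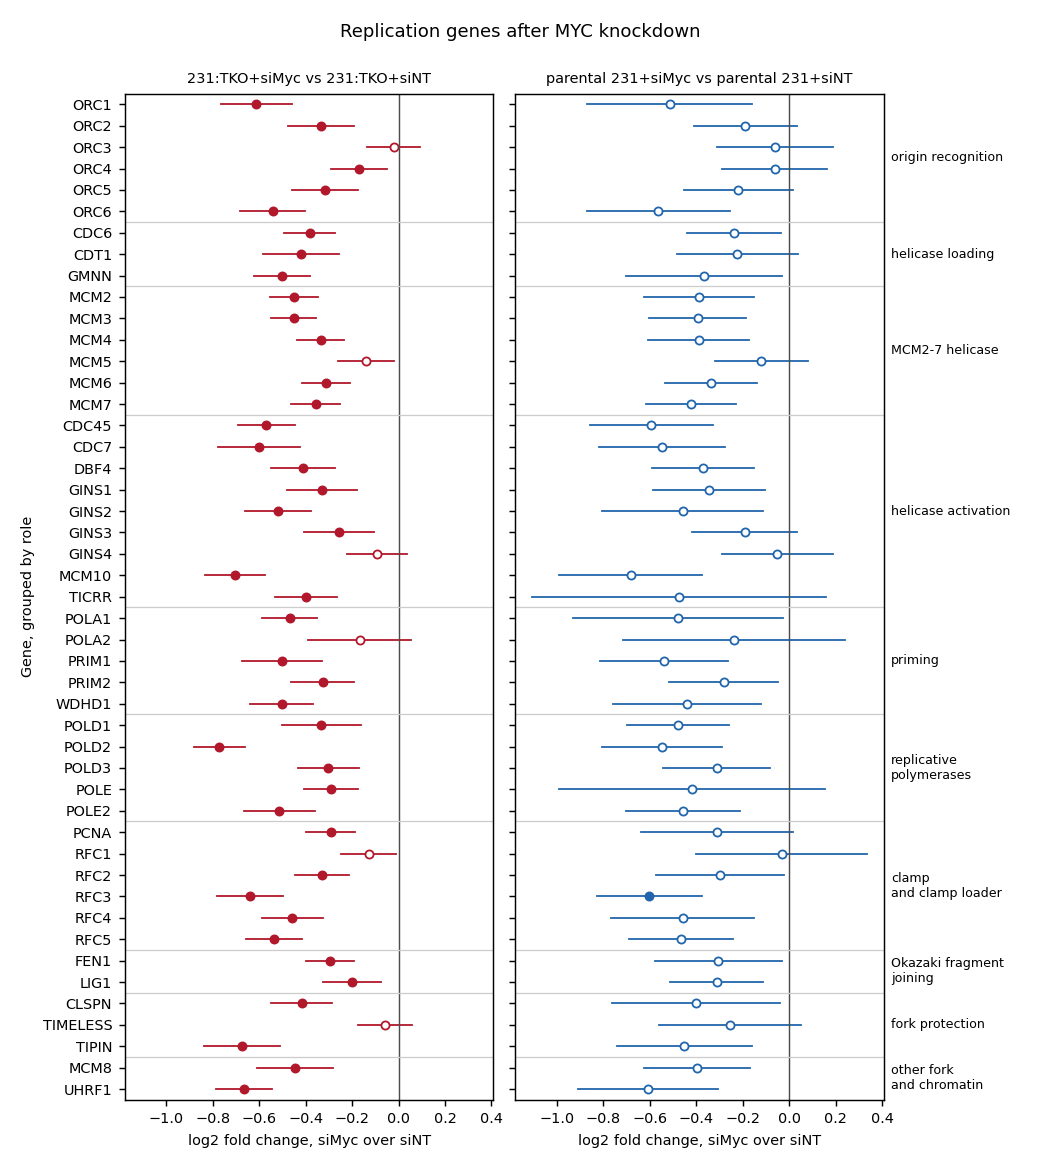
Log2 fold change of each replication gene after siMyc against siNT in 231:TKO cells (left) and parental 231 cells (right), with genes grouped by role on the y axis; points are estimates from edgeR, bars their 95% intervals, and filled points passed an adjusted p of 0.05. All 47 points lie below 0 in both panels, 41 are filled on the left and 1 on the right, and the intervals on the right are wider.

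Among the origin recognition genes, 5 of 6 fell. ORC1, the ATPase subunit whose level is known to vary over the cell cycle, was at 29.1, 28.6 and 28.0 CPM with siNT and at 19.7, 19.8 and 16.5 with siMyc in 231:TKO. Its groups did not overlap, and the log2 fold change was -0.61 (SE 0.07, edgeR adjusted p = 1.88e-06). ORC6 also fell, with a log2 fold change of -0.54, as did ORC2, ORC5 and ORC4 with -0.33, -0.32 and -0.17. ORC3, a core subunit, was at 68.0, 64.6 and 67.6 CPM with siNT and at 66.4, 62.4 and 68.1 with siMyc. Those groups overlapped, and the log2 fold change was -0.02 with a 95% interval from -0.14 to 0.09.

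All 3 helicase loading genes fell in 231:TKO, with log2 fold changes of -0.38 for CDC6, -0.42 for CDT1 and -0.50 for GMNN. CDC6, the ATPase that brings the helicase to the origin complex, was at 113, 114 and 110 CPM with siNT and at 82.1, 87.9 and 87.4 with siMyc. CDT1, the helicase chaperone, was at 29.1, 29.0 and 27.8 CPM and then at 23.6, 22.1 and 18.4. GMNN, its inhibitor, was at 58.3, 54.4 and 57.8 CPM and then at 38.6, 40.2 and 41.2. The loaders and their inhibitor were thus lower together, with no overlap between the groups of any of the 3.

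Of the MCM2-7 helicase genes, 5 of 6 fell, with log2 fold changes between -0.45 for MCM3 and MCM2 and -0.31 for MCM6. MCM3 was at 316, 316 and 314 CPM with siNT and at 233, 236 and 221 with siMyc (edgeR adjusted p = 2.16e-07). MCM2 was at 153, 157 and 153 CPM with siNT and at 114, 117 and 108 with siMyc. MCM5, a subunit of the same ring, was at 108, 111 and 105 CPM and then at 101, 103 and 88.3. Its siMyc libraries were all lower, by a log2 fold change of -0.14, but the difference did not pass the test (edgeR adjusted p = 0.0851). The 6 subunits, which form 1 ring, thus had log2 fold changes from -0.45 to -0.14.

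Helicase activation genes fell in 8 of 9 cases. MCM10, which is needed to start unwinding at the assembled helicase, was at 47.4, 42.6 and 46.0 CPM with siNT and at 27.4, 28.2 and 27.7 with siMyc. Its log2 fold change of -0.71 (SE 0.06, edgeR adjusted p = 2.88e-08) was the second largest fall among the 47. The log2 fold change was -0.60 for CDC7, -0.57 for CDC45 and -0.52 for GINS2, and it was -0.41, -0.40, -0.33 and -0.26 for DBF4, TICRR, GINS1 and GINS3. GINS4, a subunit of the same complex as GINS1, GINS2 and GINS3, was at 30.5, 29.3 and 29.9 CPM with siNT and at 27.7, 28.7 and 27.5 with siMyc. That is a log2 fold change of -0.09 with a 95% interval from -0.22 to 0.04, which did not pass.

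Among the priming genes, 4 of 5 fell. WDHD1, which couples polymerase alpha to the helicase, was at 77.0, 65.9 and 74.7 CPM with siNT and at 49.0, 49.6 and 54.6 with siMyc, a log2 fold change of -0.50. The catalytic primase subunit PRIM1 also had -0.50, POLA1, the polymerase subunit, -0.47 and PRIM2 -0.33. POLA2, the regulatory subunit, was low throughout, at 6.32, 5.51 and 6.33 CPM with siNT and at 5.29, 5.90 and 4.98 with siMyc. Its groups overlapped, and its log2 fold change of -0.17 had a 95% interval from -0.39 to 0.05.

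The largest fall among the 47 members was in POLD2, the accessory subunit of polymerase delta. It was at 179, 190 and 180 CPM with siNT and at 105, 113 and 103 with siMyc, a log2 fold change of -0.77 (SE 0.05, edgeR adjusted p = 8.77e-10). All 5 replicative polymerase genes fell. The log2 fold changes of the catalytic subunits POLD1 and POLE were -0.33 and -0.29, that of POLD3 -0.30 and that of POLE2 -0.51. POLE, the catalytic subunit of polymerase epsilon and the smallest fall of this role, was at 77.9, 74.2 and 76.9 CPM with siNT and at 64.1, 64.4 and 58.4 with siMyc.

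In the clamp and clamp loader, 5 of 6 genes fell. RFC3 was at 48.8, 44.9 and 48.7 CPM with siNT and at 27.8, 30.3 and 33.0 with siMyc, a log2 fold change of -0.64 (edgeR adjusted p = 3.64e-07). RFC5, RFC4, RFC2 and the clamp PCNA had log2 fold changes of -0.54, -0.46, -0.33 and -0.29. RFC1, the large subunit of the same loader, was at 71.2, 66.4 and 72.2 CPM with siNT and at 61.7, 62.6 and 67.2 with siMyc. The highest siMyc library lay above the lowest siNT library, and the log2 fold change of -0.13 did not pass (edgeR adjusted p = 0.109).

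FEN1 and LIG1, which trim and seal Okazaki fragments, both fell. FEN1 was at 150, 147 and 146 CPM with siNT and at 117, 125 and 119 with siMyc, and LIG1 at 70.2, 70.0 and 71.1 and then at 65.9, 62.0 and 55.6. The log2 fold changes were -0.29 and -0.20. Of the fork protection genes, TIPIN and CLSPN fell and TIMELESS, the partner of TIPIN, did not pass. TIPIN was at 15.1, 15.4 and 16.4 CPM with siNT and at 9.35, 10.1 and 9.86 with siMyc, a log2 fold change of -0.67. CLSPN was at 83.0, 69.8 and 80.7 CPM and then at 58.5, 56.6 and 59.5. TIMELESS was at 53.4, 53.4 and 52.1 CPM and then at 50.01, 52.4 and 49.8, so that its groups overlapped and its log2 fold change was -0.06. UHRF1, which brings maintenance methylation to new DNA, fell from 123, 110 and 121 CPM to 75.6, 77.8 and 69.6, a log2 fold change of -0.67. MCM8, a helicase of recombination rather than of licensing, fell from 16.0, 14.5 and 16.4 CPM to 11.1, 11.5 and 11.8, a log2 fold change of -0.44.

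In parental cells the same knockdown gave a similar median fall, but only 1 member passed the test. RFC3 was at 33.9, 36.1 and 31.3 CPM with siNT and at 22.8, 21.9 and 23.1 with siMyc, with a log2 fold change of -0.60 (SE 0.10, edgeR adjusted p = 0.0492), in a comparison where 0.354% of 23715 genes were lower. All 47 log2 fold changes were below 0, from -0.68 for MCM10 to -0.03 for RFC1, with a median of -0.39 against -0.00 over all genes. At an unadjusted p under 0.05, 33 members were lower, against 7.67% of all genes, and in 33 every siMyc library was below every siNT library, against 11.1% of all genes. Common variation between replicates was 15.5% in this comparison and 5.26% in 231:TKO.

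The count of members that passed in parental cells depended on the pair of libraries that stood apart. With a factor for that pair in the edgeR model, added after the data had been seen, 42 members were lower, and 13.1% of all genes. With the pair left out, 40 members were lower, and 10.9% of all genes. DESeq2 called 20 members lower, and 4.57% of the genes it tested. The members that still did not pass with the factor were ORC3, ORC4, GINS4, RFC1 and POLA2.

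In POLE and TICRR, both of long transcripts, the pair was lowest in its groups. POLE was at 33.8, 66.3 and 54.1 CPM in parental 231+siNT and at 44.7, 43.5 and 29.0 in parental 231+siMyc, and the groups overlapped only through replicate 1 of the first. TICRR was at 9.35, 17.4 and 16.7 CPM and then at 12.6, 12.2 and 7.06, with the same overlap. MCM10 was at 30.9, 38.6 and 40.8 CPM with siNT and at 23.6, 25.6 and 20.6 with siMyc. POLD2 was at 204, 175 and 193 CPM with siNT and at 127, 123 and 148 with siMyc. In both of these genes the groups did not overlap even with the pair included.

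**Figure D2:**
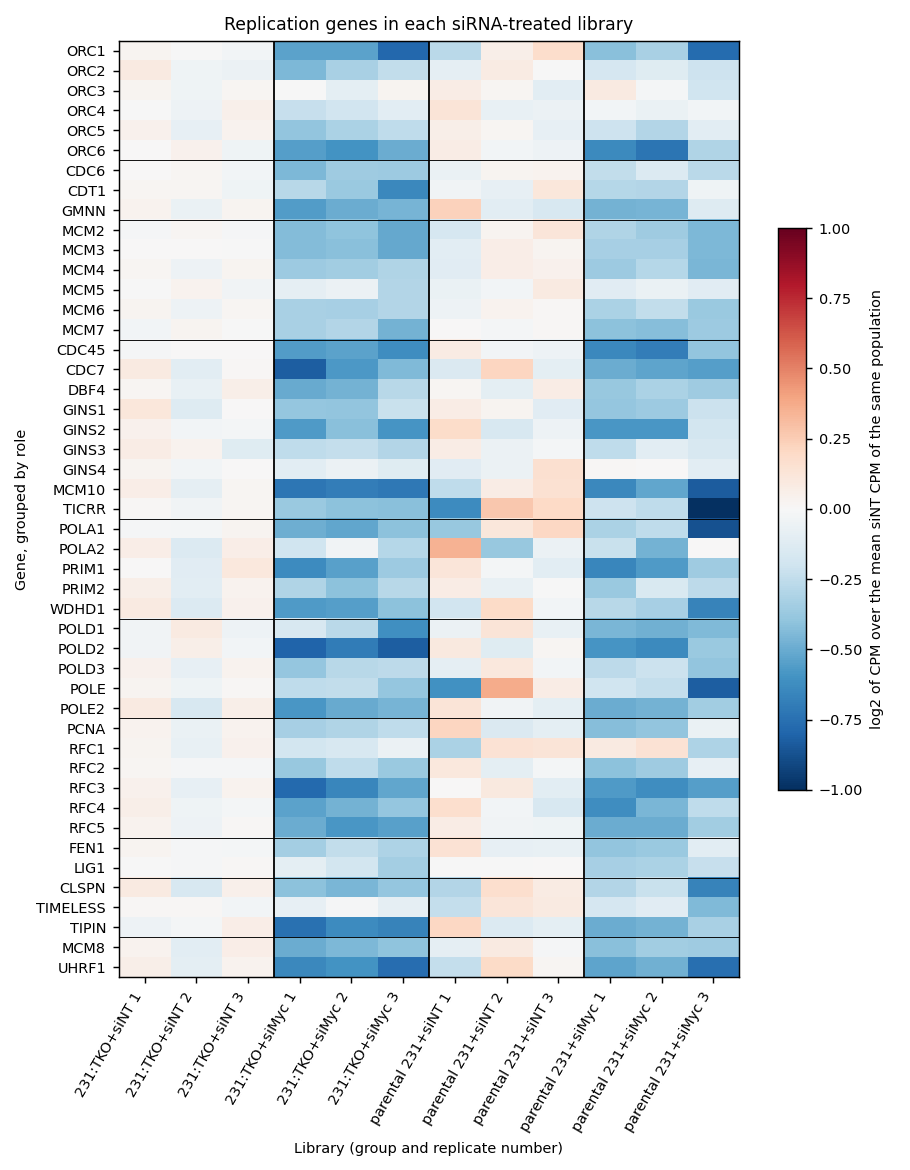
Log2 of the CPM of each replication gene in each of the 12 siRNA-treated libraries over the mean siNT CPM of the same population, with genes grouped by role on the y axis, libraries on the x axis and the value as colour from -1 to 1. Blue fills most of both siMyc blocks, and replicate 1 of parental 231+siNT and replicate 3 of parental 231+siMyc differ from their neighbours most in TICRR, POLE and POLA1.

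No member passed the test of the difference between the 2 responses to siMyc. The difference, as the log2 fold change in 231:TKO minus that in parental cells, ran from -0.20 for POLD2 to 0.23 for TIMELESS, with a median of -0.01 against 0.03 over all genes. By edgeR, 0 of 47 members and 0 of 25812 genes passed, and 0 members had an unadjusted p under 0.05, while at that level 1.19% of all genes were lower and 2.84% higher. DESeq2 called 0 members and 6 genes (0.0232%), and edgeR with the library factor 0 members and 147 genes (0.570%). The 95% interval of the difference lay within 0.5 of 0 for 42 of 47 members, and for all 47 with the library factor. This bound exceeds the size of the median response, -0.40 in 231:TKO and -0.39 in parental cells. Intervals within it therefore cannot show that the responses were equal in size. The widest intervals were those of TICRR, from -0.61 to 0.82, and POLE, from -0.50 to 0.82.

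The 2 responses were measured in separate libraries, and over the 47 members they ran in parallel, with a Pearson correlation of 0.86 and a Spearman correlation of 0.85, given as a description over genes that are not independent. The mean log2 fold change was -0.39 in 231:TKO and -0.37 in parental cells. ORC1, ORC6, CDC45, CDC7, MCM10, PRIM1, RFC3, UHRF1 and POLD2 were below -0.50 in both, and ORC3, MCM5, GINS4 and RFC1 were above -0.15 in both. TIMELESS had -0.06 in 231:TKO and -0.26 in parental cells, and CDC6 had -0.38 and -0.24. By summed exon length, the 16 shortest members had a median of -0.51 in 231:TKO, the 15 of middle length -0.36 and the 16 longest -0.31, and in parental cells the medians were -0.46, -0.37 and -0.31. The part of length in the responses to siMyc was not tested.

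Motif and response were set side by side as a description. In 231:TKO, the 23 members with an E2F motif had a median log2 fold change of -0.42 and the 20 without one -0.40. The 7 members with an E-box had a median of -0.36 and the other 36 one of -0.42. The 26 with a CCAAT box had a median of -0.45 and the 17 without one -0.33. In parental cells the order for E2F was the other way round, with medians of -0.39 with the motif and -0.45 without, while those for the E-box were -0.37 and -0.43 and those for the CCAAT box -0.42 and -0.31. In 231:TKO, TIMELESS, with its E-box at position -25, was among the members with the smallest changes, and POLD2, with neither E-box nor E2F motif in its window, had the largest.

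Other genes of replication moved in the same direction. Of 37 further replication factors, 25 fell and 1 rose after siMyc in 231:TKO, with a median of -0.30. By edgeR, 13.9% of all genes were lower there and 13.3% higher. In parental cells 0 of the factors passed by edgeR, where 0.354% of all genes were lower. At an unadjusted p under 0.05, 17 of the factors were lower, against 7.67% of all genes, and their median was -0.26. The 2 with the largest falls in 231:TKO were DNA2, a nuclease that trims long flaps, at -0.63, and DSCC1, a subunit of an alternative clamp loader, at -0.57. TOP1, a topoisomerase that relaxes DNA ahead of the fork, had the smallest fall among those that passed the test, at -0.20. The gene that rose was POLD4, the smallest subunit of polymerase delta, at 10.1, 13.0 and 9.65 CPM with siNT and at 19.0, 17.1 and 14.5 with siMyc, a log2 fold change of 0.63 (edgeR adjusted p = 0.000112). In parental cells POLD4 was at 22.3, 17.4 and 18.1 CPM with siNT and at 22.2, 24.5 and 31.5 with siMyc, a log2 fold change of 0.41 that did not pass (edgeR adjusted p = 0.284). POLD4 thus rose in 231:TKO while POLD1, POLD2 and POLD3, which encode the rest of the same enzyme, fell.

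Genes of mitosis, which mark cycling cells but do not act at the fork, moved with the replication genes. All 15 mitotic genes fell after siMyc in 231:TKO, with a median of -0.35 and a range from -0.73 for KIF11 to -0.24 for AURKB. Of all genes, 13.9% were lower in 231:TKO. In parental cells 0 of 15 passed by edgeR, where 0.354% of all genes were lower. All 15 were below 0, with a median of -0.35. Of these, 10 had an unadjusted p under 0.05, and 7.67% of all genes were lower at that level. The part of a change in the share of cycling cells in the fall of the replication genes was not tested.

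Untreated 231:TKO was compared with parental 231, where the TXNIP knockout and the clone cannot be told apart. By edgeR, 6 members were higher in 231:TKO, namely MCM6, RFC1, ORC2, ORC4, POLD2 and LIG1, and the loading, activation, priming and fork protection genes held none of them. No member was lower by edgeR, where 1 had an unadjusted p under 0.05 against 12.3% of all genes, and DESeq2 also called 0 lower, against 6.26%. Among all 19951 genes, 5.44% were higher and 4.18% lower by edgeR. DESeq2 called 5 members higher, against 7.93% of the genes it tested. Of the 6 members named, LIG1 was the one that DESeq2 did not call (DESeq2 adjusted p = 0.0655). The median log2 fold change of the 47 members was 0.07, against 0.00 over all genes.

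MCM6, a helicase subunit, was at 153 and 156 CPM in parental 231 and at 222 and 277 in 231:TKO, a log2 fold change of 0.61 (SE 0.12, edgeR adjusted p = 0.0418). RFC1 was at 99.2 and 96.5 CPM and then at 145 and 164, a log2 fold change of 0.59. ORC2, a core subunit of the origin complex, was at 38.4 and 38.4 CPM and then at 60.4 and 55.7, a log2 fold change of 0.52. ORC4 was at 41.0 and 42.5 CPM and then at 60.6 and 57.0, a log2 fold change of 0.42. POLD2 and LIG1 differed less, by 0.32 and 0.31. POLD2 was at 127 and 127 CPM and then at 165 and 170, and LIG1 at 59.1 and 59.2 and then at 76.0 and 78.3. In none of the 6 did the groups overlap, which held in this direction for 29.2% of all genes.

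Of these 6, 3 lay in stretches of the genome whose other genes were also higher. In windows of 20 Mb, with the members left out, the median shift in 231:TKO was 0.45 around MCM6 on chromosome 2, 0.42 around ORC4 on the same chromosome and 0.40 around RFC1 on chromosome 4. With offsets for these windows, MCM6 had a log2 fold change of 0.17, ORC4 of 0.01 and RFC1 of 0.19, and none of the 3 passed. ORC2, POLD2 and LIG1 kept 0.44, 0.37 and 0.43 and passed, and FEN1, at -0.33, was then lower. The part of a change in copy number in these values was not tested.

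The counts also depended on single libraries. Without replicate 1 of 231:TKO, 24 members were higher and 5 lower, where 18.4% of all genes were higher and 19.0% lower. Without replicate 2 of 231:TKO, 10 were higher and 14 lower, where 18.5% of all genes were higher and 17.6% lower. In these fits the spread came from the 2 parental 231 libraries alone, which differed far less than the 231:TKO libraries, and the lone 231:TKO library was assumed to vary like them. Without replicate 1 or without replicate 2 of parental 231, where the spread came from the 231:TKO libraries, 0 members and 0 genes passed. The 231:TKO replicates lay on opposite sides of the parental level in several members: GMNN was at 67.3 and 95.1 CPM against 87.4 and 87.8 in parental 231, and MCM3 at 484 and 691 against 545 and 536. ORC3 was at 80.8 and 39.4 CPM against 70.9 and 74.2, and the window around it on chromosome 6 was shifted by 0.02 in replicate 1 of 231:TKO and by -0.52 in replicate 2.

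**Figure D3:**
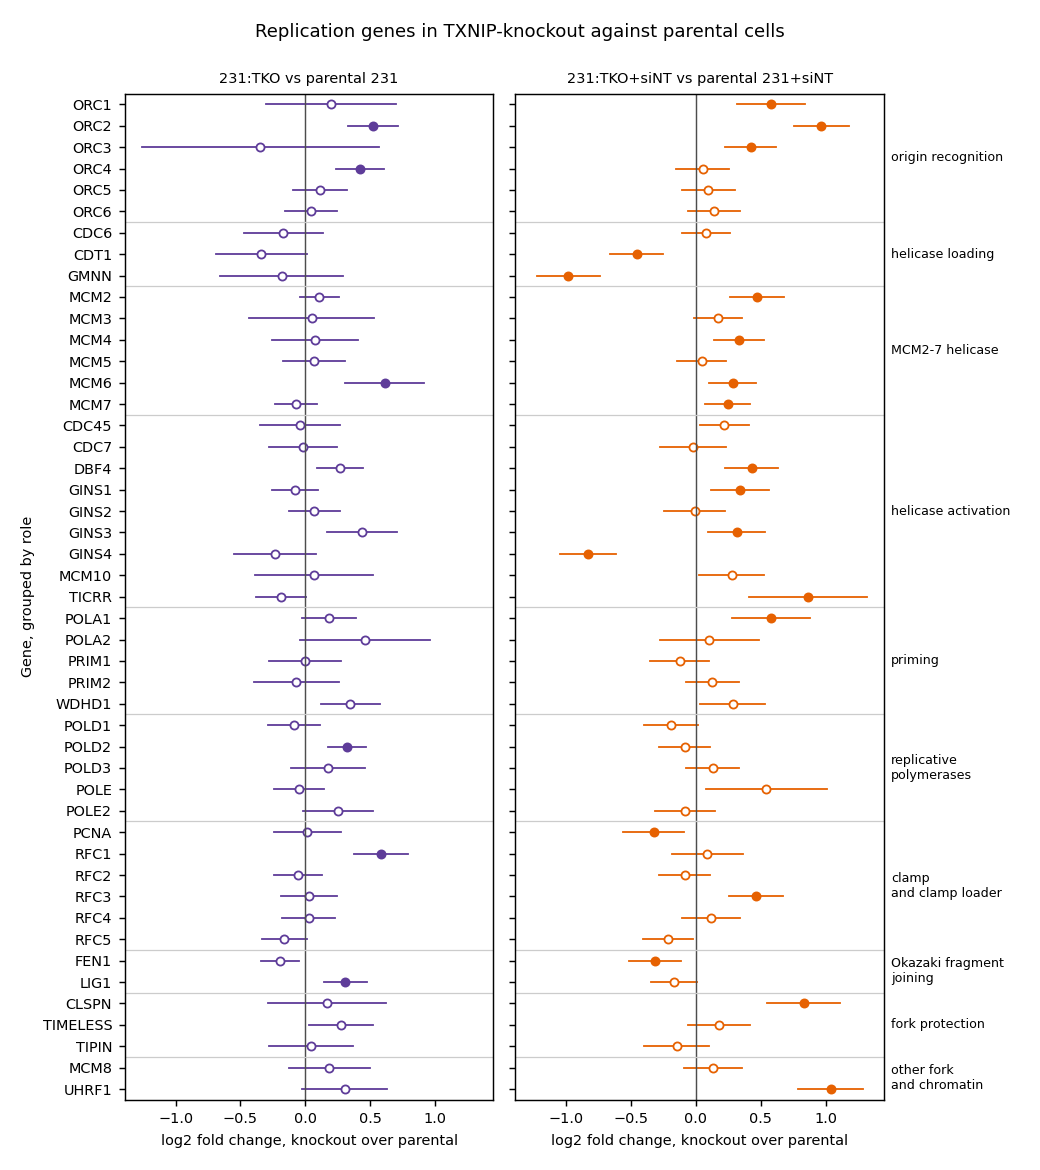
Log2 fold change of each replication gene in 231:TKO against parental 231 without siRNA (left) and with siNT (right), with genes grouped by role on the y axis; points are estimates from edgeR, bars their 95% intervals, and filled points passed an adjusted p of 0.05. On the left 6 points are filled, all above 0, and on the right 15 filled points lie above 0 and 5 below.

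With siNT in both populations, 15 members were higher and 5 lower in 231:TKO by edgeR, where 16.1% of 23310 genes were higher and 20.7% lower. In this comparison the population cannot be told apart from the counting run, because the annotation release differed between the groups. UHRF1 was at 123, 110 and 121 CPM in 231:TKO+siNT and at 47.6, 64.1 and 57.2 in parental 231+siNT, a log2 fold change of 1.04 (SE 0.11, edgeR adjusted p = 3.93e-05). ORC2 was at 37.1, 33.8 and 33.5 CPM and at 16.4, 18.5 and 17.5, a log2 fold change of 0.97, and it was also higher in the untreated cells. TICRR, CLSPN, ORC1 and POLA1 were higher by 0.87, 0.83, 0.58 and 0.58, and the other higher members, MCM2, RFC3, DBF4, ORC3, GINS1, MCM4, GINS3, MCM6 and MCM7, by 0.47 to 0.24.

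The members that were lower with siNT were GMNN, GINS4, CDT1, PCNA and FEN1. GMNN was at 58.3, 54.4 and 57.8 CPM in 231:TKO+siNT and at 129, 103 and 98.6 in parental 231+siNT, a log2 fold change of -0.98 (edgeR adjusted p = 4.63e-05). GINS4 was at 30.5, 29.3 and 29.9 CPM against 48.4, 50.1 and 58.3, a log2 fold change of -0.84. The log2 fold change was -0.46 for CDT1, -0.33 for PCNA and -0.31 for FEN1. Geminin and its target CDT1 were thus both lower in 231:TKO+siNT, and GINS4 was lower while its partners GINS1 and GINS3 were higher.

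Length moved with these differences. Over the 47 members, the log2 fold change with siNT had a Spearman correlation of 0.46 with the summed exon length, and over the 13445 genes above 1 CPM it was 0.28, both given as descriptions. In the untreated comparison it was 0.39 over the members and -0.02 over all genes, and for siMyc in 231:TKO 0.37 and 0.03. With siNT, the 16 shortest members had a median of -0.09, the 15 of middle length 0.27 and the 16 longest 0.15. Without replicate 1 of parental 231+siNT, 23 members were higher and 8 lower, where 22.4% of all genes were higher and 25.8% lower. Window shifts in the same comparison were above 0.25 around MCM6, ORC3 and ORC4 and below -0.25 around 8 members, GMNN, PCNA and UHRF1 among them. With window offsets GMNN had -0.57, UHRF1 1.34 and ORC2 0.90, while MCM6 turned from 0.28 to -0.32 and PCNA from -0.33 to 0.01. Of the members called without offsets, PCNA, ORC3, FEN1 (-0.13), RFC3 (0.22) and GINS3 (0.22) no longer passed, and others passed only with them. In all, 17 members were then higher and 6 lower, where 16.1% of all genes were higher and 18.0% lower. The part of length and of copy number in these values was not tested.

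With siMyc in both populations, in libraries separate from those with siNT, 17 members were higher and 8 lower in 231:TKO, where 18.8% of 23561 genes were higher and 21.7% lower. UHRF1 was higher by 0.99, TICRR by 0.96 and ORC2 and CLSPN by 0.83, and the log2 fold change was -1.11 for GMNN, -0.87 for GINS4 and -0.64 for CDT1. The same limits on annotation release, length and window hold for these values. For the difference between the knockout effects without siRNA and with siNT, 3 members were higher (GMNN, GINS4 and LIG1) and 2 lower (TICRR and UHRF1) by edgeR, where 7.91% of 25112 genes were higher and 6.20% lower.

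**Figure D4:**
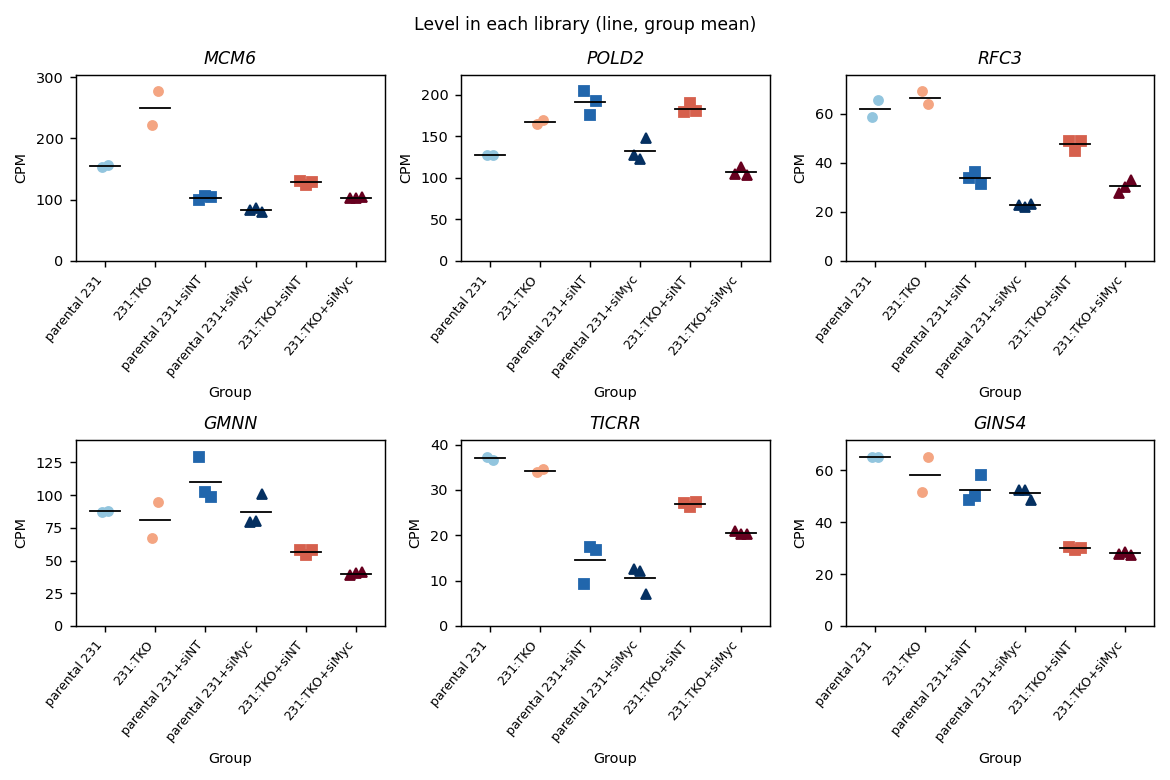
CPM of MCM6, POLD2, RFC3, GMNN, TICRR and GINS4 in each of the 16 libraries, with the 6 groups on the x axis, points for libraries and a line for the group mean; each panel starts at 0. In POLD2 and RFC3 every siMyc library lies below every siNT library of its population, and in GMNN and GINS4 all siRNA-treated 231:TKO libraries lie below the parental ones.

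Levels per length differed widely among the members. In parental 231, PCNA had the highest level, at 161 ± 0.41 CPM per kb of exon (SD, n = 2), followed by MCM3 at 148 ± 1.73, MCM7 at 99.2 ± 1.04 and FEN1 at 72.4 ± 0.61. POLA2 was lowest, at 1.08 ± 0.17, after GINS3 at 2.71 ± 0.12 and TICRR at 4.39 ± 0.06. In 231:TKO, PCNA at 171 ± 22.03 and MCM3 at 161 ± 40.0 did not differ beyond their spread. The same 4 genes led in every group, with PCNA first, and POLA2 was last in every group. In 231:TKO+siNT, PCNA was at 101.6 ± 4.14 and POLA2 at 1.09 ± 0.08 CPM per kb (SD, n = 3), and after siMyc they were at 82.8 ± 2.27 and 0.97 ± 0.08. Subunits of the MCM2-7 ring differed in level, with MCM3 at 86.5 ± 0.32 and MCM5 at 14.8 ± 0.39 CPM per kb in 231:TKO+siNT. In CPM, MCM3 was there at 316, 316 and 314 and MCM5 at 108, 111 and 105. The length used is the sum of all annotated exons, 3645 bases for MCM3 and 7268 for MCM5. Differences per kb between genes therefore depend partly on the annotation.

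**Figure D5:**
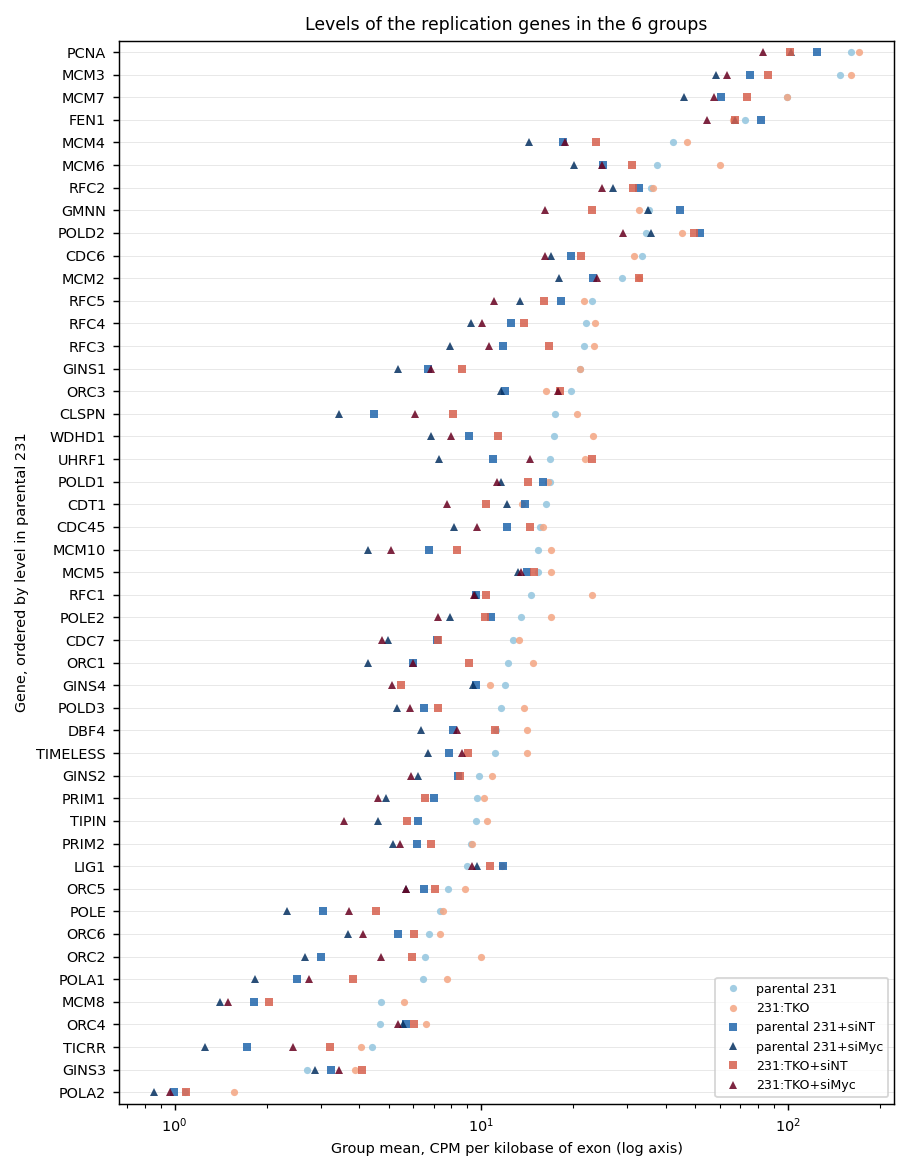
Group mean of each replication gene in CPM per kilobase of exon on a log axis, with genes ordered by their level in parental 231 on the y axis and a symbol for each of the 6 groups. PCNA, MCM3, MCM7 and FEN1 stand at the top and POLA2 at the bottom, and siMyc symbols lie to the left of the siNT symbols of the same population.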

How the data were processed

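RNA was sequenced in 16 libraries of MDA-MB-231 cells, and the authors deposited raw counts per gene without normalization. Per the labels and file headers, reads were aligned to GRCh38 with STAR and assigned by featureCounts 1.6.3 (reverse-stranded, largest overlap) to Ensembl release 102, while the parental libraries with siRNA used release 104. The counted unit was the single read without siRNA and the read pair with it.

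Tests covered genes whose counts added up to more than 5 in a comparison and were made in R 4.3.3 with edgeR 4.0.16 (TMM scaling, robust quasi-likelihood test, no covariate), each comparison fitted on its own libraries and differences between responses as interaction contrasts. P-values were adjusted over the whole table by Benjamini-Hochberg, and a gene was called at an adjusted p of at most 0.05. CPM values used a common TMM scale over all libraries, and 95% intervals came from the same fits. Alternatives were DESeq2 1.42.0, its size factors in edgeR, other filters and thresholds, a replicate block, each library left out, offsets for 20 Mb windows with at least 15 genes above 1 CPM, and a factor for or the removal of a pair of libraries, the last chosen after seeing the data. The plain edgeR and DESeq2 fits were run on simulated counts for the untreated comparison, both siMyc responses and the difference between these responses. Window offsets, the factor for the pair and the other comparisons were not simulated.

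The members and lists were chosen with earlier results of these data known. All members are named by role. Values per library are given for the lowest and highest log2 fold change of each role after siMyc in 231:TKO (all members of roles of up to 3), for every member called in 231:TKO against parental 231, and for MYC and TXNIP, and those of other members shown were chosen after their values were seen. Of the further replication factors, the 2 lowest and 2 highest called log2 fold changes are named. Promoter sequences came from RefSeq (GRCh38.p14). The depth allows 3 counts to be seen at 0.0502 to 0.158 CPM. Measurements other than these RNA libraries were not analysed here.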

Additional observations from a re-analysis of the deposited data

Results flagged for a closer look

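The difference between 231:TKO and parental 231 in untreated cells was compared with that in siNT-treated cells. An interaction contrast in edgeR gave the untreated log2 difference minus the siNT-treated one. At an adjusted p of at most 0.05, 3 of the 47 members were higher and 2 lower, where 7.91% of all genes were higher and 6.20% lower, so the members' count is no larger than the background. The siRNA treatment and the counting of single reads or read pairs cannot be told apart in this contrast. Among its groups, only parental 231+siNT was counted with the later annotation release. Mean window shifts, untreated and then with siNT, were -0.04 and -0.41 around GMNN, -0.08 and -0.30 around UHRF1 and -0.0002 and 0.22 around TICRR. They were 0.02 and -0.01 around GINS4 and -0.12 and -0.17 around LIG1. The part of annotation release and of these shifts in the contrast was not tested.

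For GMNN the contrast was 0.81 (SE 0.21, edgeR adjusted p = 0.0165), from an untreated difference of -0.18, where the 231:TKO libraries lay on both sides of the parental ones, and an siNT-treated difference of -0.98. For GINS4 it was 0.60 (edgeR adjusted p = 0.0249), from -0.23 and -0.84. For LIG1, which was higher in untreated 231:TKO by 0.31 and at -0.17 with siNT, it was 0.48 (edgeR adjusted p = 0.0182). For TICRR the contrast was -1.05 (edgeR adjusted p = 0.0209), from -0.19 and 0.87, and TICRR was low in the parental 231+siNT library that stood apart. For UHRF1 it was -0.74 (edgeR adjusted p = 0.0131), from 0.30 and 1.04. These calls were lost when either parental 231 library was left out, while calls among other genes remained. Such a fit leaves 1 library of parental 231, which was assumed to vary like the other groups. The median contrast of the members was 0.0177 without replicate 1 and -0.0002 without replicate 2, against 0.0248 with all libraries.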

How the results depend on the processing

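The median of the members after siMyc in 231:TKO stayed below 0 under every alternative run, and no member was called higher. Over all members and alternatives, 2 log2 fold changes turned above 0, neither of them called. Lower members numbered 38 to 42 when 1 library was left out and 41 by DESeq2. They numbered 27 in 1 fit of the 12 siRNA-treated libraries and 15 with a log2 fold change of at least 0.5 asked for. Of all genes, 11.1% to 16.6% were lower with 1 library left out, 19.1% by DESeq2 and 4.38% in the fit of 12 libraries. Shares over all genes were not computed for the stricter thresholds of log2 fold change or adjusted p in any comparison. In parental cells the count of lower members, 1 as reported, was 0 with DESeq2's size factors, 0 at an adjusted p of at most 0.01, 2 with more than 5 counts in every library, 5 without a filter, 20 by DESeq2, 26 in the fit of 12 libraries, 42 with the library factor, 40 with the pair left out and 0 to 2 with 1 library left out, while the median stayed between -0.39 and -0.36 in the latter (-0.40 with more than 5 counts in every library, -0.41 with the pair left out). Of all genes, 0.236% were lower in parental cells with DESeq2's size factors and 0.862% with more than 5 counts in every library. The share was 0.672% without a filter, 3.65% in the fit of 12 libraries and at most 0.436% with 1 library left out. The median difference between the responses was -0.0491 by DESeq2, -0.0495 with its size factors, -0.0430 with the pair left out and -0.0728 to 0.0224 with 1 library left out. The cause was not tested.

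In 231:TKO against parental 231, 3 members were higher and 1 lower with window offsets, 3 were higher with a log2 fold change of at least 0.5 and 0 at an adjusted p of at most 0.01. With window offsets, 4.22% of all genes were higher and 4.64% lower. With 1 library left out, which leaves a lone library assumed to vary like the other group, 0 to 24 were higher and 0 to 14 lower, and without replicate 2 of 231:TKO the log2 fold changes of MCM3, MCM4, MCM10 and PCNA turned to -0.23, -0.12, -0.19 and -0.13, against 0.27, 0.23, 0.28 and 0.13 without replicate 1. With siNT, 6 members were higher and 2 lower with a log2 fold change of at least 0.5, 3 were lower at 0.01, the median was 0.17 with window offsets, and leaving out 1 library gave 10 to 23 higher, 3 to 8 lower and medians from 0.11 to 0.17. Those siNT fits with 1 library left out called at most 22.4% of all genes higher and 15.4% to 25.8% lower. Window offsets turned MCM6 to -0.32, ORC3 to -0.20, ORC4 to -0.33 and PCNA to 0.0121. With siMyc in both populations, 6 members were higher and 3 lower with a log2 fold change of at least 0.5, 3 were lower at 0.01, leaving out 1 library gave 3 to 8 lower and medians from 0.11 to 0.16, and window offsets turned MCM6 to -0.19, ORC3 to -0.23 and PCNA to 0.075. In those siMyc fits with 1 library left out, 17.3% to 26.6% of all genes were lower. For the difference between the knockout effects, DESeq2 gave 8 lower, its size factors 5, more than 5 counts in every library 8, and an adjusted p of at most 0.01 gave 0 in either direction. Of all genes, 12.2%, 6.66% and 12.1% were lower in the first settings named, in that order. Leaving out 1 siNT-treated library gave 1 to 7 higher and 1 to 6 lower. In those fits, 5.54% to 13.2% of all genes were higher and 4.38% to 7.44% lower. Over all fits with 1 library left out, medians ran from -0.0964 to 0.0933. The cause was not tested.

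Same-numbered replicates did not deviate together in any comparison beyond a correlation of 0.1 for every number (-0.81 to 0.63). With so few libraries per group, and with the pair that stood apart, these values cannot settle whether same-numbered replicates were paired. With a replicate block, 1 member was higher in 231:TKO against parental 231, 0 were lower after siMyc in parental cells and 4 were lower in 231:TKO with siMyc in both populations, and no other count of members moved by more than 1.5 times. The shares of all genes called with this block were 2.62%, 0% and 18.4%, in the order of the counts just given. Depth set no limit for most members, and POLA2, between 3.99 and 9.61 CPM, was the least deeply counted.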
